A study of Erythranthe pardalis x Erythranthe guttata and Erythranthe pardalis with 20 samples.

Results

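Expression of 3 MADS-box genes was followed from the unfertilized ovule to the heart-stage seed of monkeyflowers (Mimulus). Migut.B01089 and Migut.I00404 have AGL45 and AGL29 as their nearest Arabidopsis thaliana homologues, and Migut.N01481 was taken as the homologue of AGL26. They are 3 of the 28140 genes with a deposited count, and they were chosen by their time course, because they were high late in seed development or stayed nearly level. Their levels at the different ages are therefore a description and carry no test. Each of the 3 genes passed the filter on low counts (a CPM, the count scaled to a common library total, of more than 1 in at least 3 libraries), which 20242 genes passed in all.

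The samples were whole hybrid seeds collected 2, 4, 6 or 8 DAP (days after pollination), made by pollinating Mimulus pardalis of the inbred line SEC39 with pollen of Mimulus guttatus of the inbred line CSS4, and unfertilized SEC39 ovules (0 DAP). Ovules gave 5 libraries, 4 DAP seeds gave 3, and seeds of 2, 6 and 8 DAP gave 4 each. Every mean ± SD below is over these numbers of libraries. All plants were kept in growth chambers, each library was made from a pool of ovules or seeds, and the seeds were dissected by hand, so that some placental tissue can be present. The ovules carry SEC39 alleles alone, so that fertilization and the arrival of a CSS4 allele cannot be told apart between 0 and 2 DAP, and the counts sum both alleles in seeds. By the labels each library pools fruits or ovaries of different plants. By the paper a seed replicate came from 1 of 4 maternal plants, which were used again across ages with the same pollen donors, and some ovule libraries were pooled over plants. These accounts differ, the identity of the plants is uncertain, and p-values measure only the spread between these libraries.

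MADS-box proteins are transcription factors that bind DNA through the MADS domain. Type I members lack the keratin-like domain of the type II (MIKC) members, which include the floral organ identity factors. In Arabidopsis, many type I genes are active in the female gametophyte and the endosperm, the tissue that nourishes the embryo. AGL62 holds back the formation of cell walls in the Arabidopsis endosperm, and AGL61 and AGL80 are needed for the central cell from which the endosperm arises. In Mimulus the endosperm is cellular from its first divisions.

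Levels are given as normalized CPM, which is CPM computed on a library total rescaled by the trimmed mean of M-values (TMM). Total counts per library were between 7588155 and 16529554, with a median of 13118699. A count of 0 in a single library allowed up to 3 counts, which was 0.181 to 0.395 CPM before rescaling, and this limit covers counting error only. TMM moved the median of all genes. Without it, the median log2 change over all genes kept was -0.356 for 2 DAP seeds over ovules, 0.427 for 4 over 2 DAP, -0.22 for 6 over 4 DAP and -0.469 for 8 over 6 DAP. Gene lengths were not used here, so that levels are compared between samples and not between genes. In whole seeds, fewer cells that express a gene and less RNA per cell cannot be told apart.

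The AGL45 homologue, Migut.B01089, had its highest level in 6 DAP seeds. It had no count in any of the 5 ovule libraries, which allowed a level of up to 0.0444 normalized CPM over that group. At 2 DAP its level was 1.92, 1.25, 2.17 and 1.17 normalized CPM in replicates 1 to 4, from 37, 13, 25 and 13 counts. At 4 DAP it was 2.63, 2.71 and 3.03 in replicates 1 to 3. At 6 DAP, the late globular stage of the embryo, it was 13.3, 14.6, 7.75 and 13.8, from 162, 204, 88 and 158 counts. At 8 DAP, the heart stage, replicates 1 and 2 had 0.274 and 1.33 normalized CPM, from 3 and 15 counts, and replicates 3 and 4 had none. Every library of 6 DAP thus stood above every other library of the series, and the lowest of the 6 DAP libraries, replicate 3, was still above the highest at 4 DAP.

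The mean of AGL45 in seeds was 1.63 ± 0.492 (2 DAP), 2.79 ± 0.209 (4 DAP), 12.3 ± 3.1 (6 DAP) and 0.401 ± 0.632 (8 DAP, SD, n = 3 at 4 DAP and 4 otherwise). Against a limit of 3 counts over the ovule libraries together, the level was at least 36.6-fold higher at 2 DAP and at least 278-fold higher at 6 DAP. The 4 DAP mean was 1.72 times that of 2 DAP, and the 6 DAP mean was 4.42 times that of 4 DAP. The 8 DAP mean was 0.0325 of the 6 DAP mean, a 30.8-fold lower level. Of the 18 counts at 8 DAP, 15 were in replicate 2, and without it the 8 DAP mean was 0.0912. Of the sum of the 5 age means, 71.8% fell at 6 DAP and 16.3% at 4 DAP.

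The AGL29 homologue, Migut.I00404, was high at both late ages. Ovule replicate 2 had 1 count (0.0526 normalized CPM) and the other ovule libraries had none. At 2 DAP its level was 0.259, 0, 1.56 and 0.541 in replicates 1 to 4, from 5, 0, 18 and 6 counts. At 4 DAP it was 0.928, 1.06 and 0.787, within the range of the 2 DAP libraries. At 6 DAP it was 13.7, 15.2, 17.6 and 14.1, from 167, 213, 200 and 162 counts. At 8 DAP it was 25.5, 26.3, 11.7 and 9.52, from 280, 297, 110 and 94 counts. The 6 DAP libraries lay close together and far above 4 DAP. The 8 DAP libraries split to either side of them, with replicates 1 and 2 above all 6 DAP libraries and replicates 3 and 4 below all of them.

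The AGL29 mean was 0.0105 ± 0.0235 in ovules (SD, n = 5), and in seeds it was 0.59 ± 0.683 (2 DAP), 0.925 ± 0.136 (4 DAP), 15.2 ± 1.75 (6 DAP) and 18.3 ± 8.9 (8 DAP). At 2 DAP, replicate 3 held 18 of the 29 counts, and without it the mean was 0.267. The 6 DAP mean was 16.4 times the 4 DAP mean. The 2 DAP counts, pooled over libraries, were 37.5 times the ovule count for the same depth, with a 95% counting interval from 6.21 to 1530, since the ovule value rests on 1 count, and the 2 DAP value rests for the most part on replicate 3. Between 8 and 6 DAP the ratio of means was 1.2 and the libraries overlapped. The order of these ages turned with the scaling, and by CPM without TMM the mean was 14.7 at 8 DAP and 15.4 at 6 DAP. The ages 8 and 6 DAP held 52.2% and 43.4% of the sum of the 5 age means.

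Migut.N01481, the AGL26 homologue, was counted in every library, from 37 to 92 times with a median of 58.5. Its level in ovules was 5.51, 4.21, 4.69, 5.93 and 10.2 normalized CPM in replicates 1 to 5. It was 4.2, 5.08, 3.81 and 3.34 at 2 DAP, and 3.61, 3.38 and 3.57 at 4 DAP. At 6 DAP it was 4.6, 4.64, 4.76 and 4.18, and at 8 DAP 5.02, 4.25, 7.22 and 8.61. Ovule replicate 5 was the highest library of the series, and 8 DAP replicates 4 and 3 came next.

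The means of Migut.N01481 were 6.1 ± 2.38 (SD, n = 5), 4.11 ± 0.737 (n = 4), 3.52 ± 0.126 (n = 3), 4.54 ± 0.249 (n = 4) and 6.27 ± 2.0 (n = 4) from 0 to 8 DAP. The highest, at 8 DAP, was 1.78 times the lowest, at 4 DAP. A smaller ratio of highest to lowest age mean was found in 18.5% of the 20242 genes kept, and the median ratio over genes above 0 at all ages was 2.71. Over the 20 libraries the coefficient of variation was 35.2%, against 12.6% that counting error alone would give. The order of the ages turned with the scaling here too. By CPM without TMM the highest mean was 7.04 at 0 DAP and the lowest 3.85 at 2 DAP. Without ovule replicate 5 the 0 DAP mean was 5.08 normalized CPM.

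**Figure D1:**
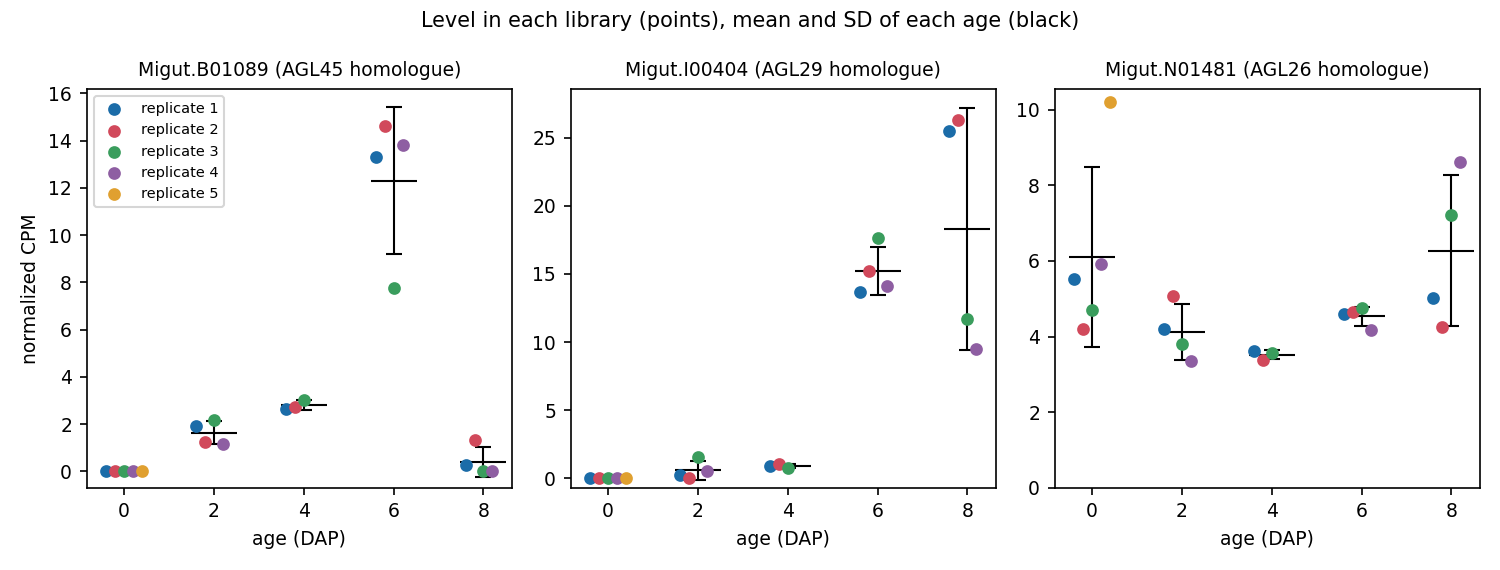
Level of the 3 genes in normalized CPM (vertical axis) at each age in DAP (horizontal axis), with 1 point per library colored by replicate number, the mean as a black bar and the SD as its error bar. AGL45 was close to 0 at 8 DAP (0.401) and highest at 6 DAP (12.3), AGL29 was high at 8 and 6 DAP (18.3 and 15.2), and Migut.N01481 kept age means between 3.52 and 6.27.

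Where the libraries of neighboring ages did not overlap, the share of all genes for which the same holds is given beside them, and nothing is read from it, since the genes were chosen by these levels. Between 2 DAP seeds and ovules, 1 of the 3 genes (AGL45) had every seed library above every ovule library, and 9.13% of the genes kept did. Between 4 and 2 DAP, AGL45 was again the 1 gene with every later library higher, which held for 9.04% of genes. Between 6 and 4 DAP all 3 genes had every 6 DAP library above every 4 DAP library, as did 22.9% of genes. Between 8 and 6 DAP, AGL45 was the 1 gene with every later library lower, which held for 25.3% of genes.

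The order of ages can be read against these spreads. For AGL45 the order was 6, 4, 2, 8 and 0 DAP, and its neighbors 2 and 8 DAP overlapped, as did 8 and 0 DAP. For AGL29 the order was 8, 6, 4, 2 and 0 DAP, and only 6 and 4 DAP stood apart among its neighbors. For Migut.N01481 the order was 8, 0, 6, 2 and 4 DAP, and each pair of neighbors in it overlapped.

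Counts of 2 genes in the same library share that library's depth and scaling, so that their ratio is free of both. Gene length still enters the ratio, and only its change between libraries is of use. Of the counts of AGL29 and AGL45 together, AGL29 held 11.9%, 0%, 41.9% and 31.6% in 2 DAP replicates 1 to 4. It held 26.1%, 28.1% and 20.6% in 4 DAP replicates 1 to 3. The 6 DAP libraries gave 50.8%, 51.1% and 50.6% in replicates 1, 2 and 4, with exact (Clopper-Pearson) 95% intervals between 45.0% and 56.3%, and 69.4% in replicate 3, with an interval from 63.8% to 74.7%. At 8 DAP the share was 98.9% and 95.2% in replicates 1 and 2, with the lowest bound at 92.2%, and every count of either gene was one of AGL29 in replicates 3 and 4. The intervals cover counting error alone, and replicates of an age differed by more than counting error over all genes. The share in 6 DAP replicate 3 was the highest of its age, and the shares at 8 DAP lay above all others.

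**Figure D2:**
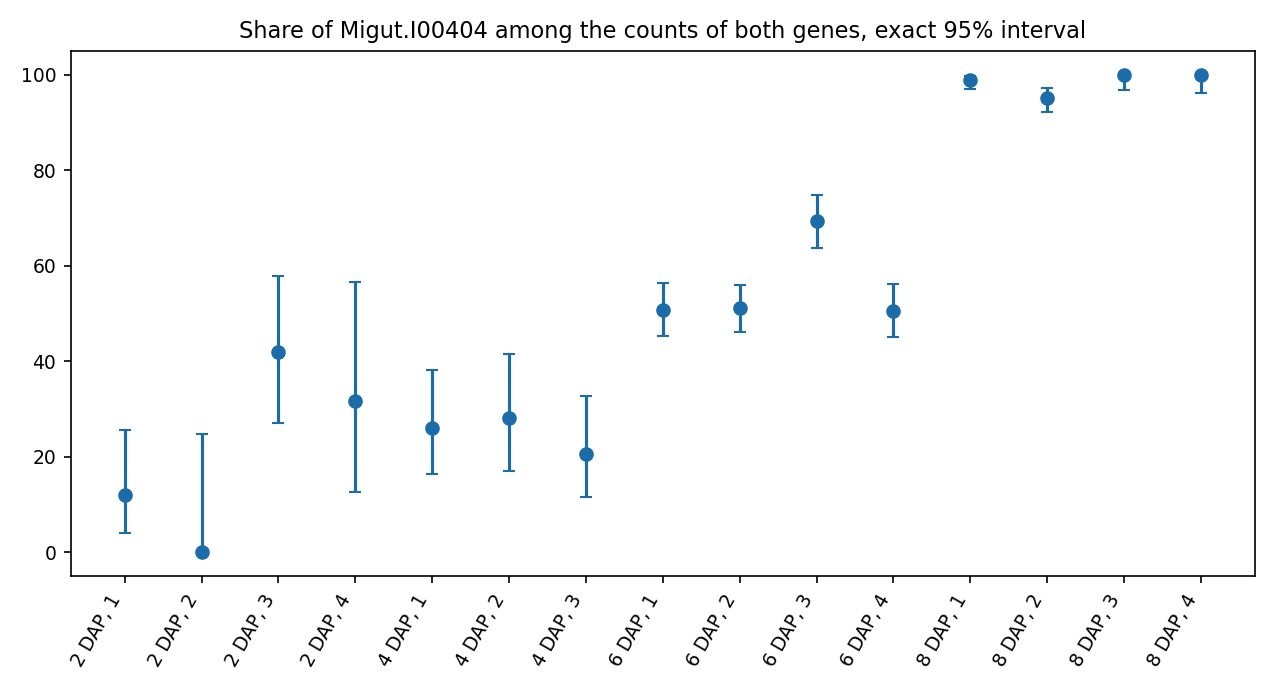
Counts of AGL29 as a percentage of the counts of AGL29 and AGL45 together (vertical axis) in each seed library, by age and replicate (horizontal axis), with exact 95% binomial intervals that cover counting error only. The 4 DAP libraries lie between 20.6% and 28.1%, 3 of the 6 DAP libraries between 50.6% and 51.1% with replicate 3 at 69.4%, and the 8 DAP libraries at 95.2% or more.

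The libraries of 8 DAP differed among themselves in seed maturation markers as well. The markers were 6 homologues of genes that act in the maturing embryo, namely 2 of OLE1 (an oil body protein) and 1 each of ABI3, FUS3, LEC1 and L1L (transcriptional regulators of embryo development and maturation). Their summed level was 872, 225, 1530 and 1650 normalized CPM in 8 DAP replicates 1 to 4, against 48.9 to 68.5 in 6 DAP libraries. At 8 DAP the sum was carried mostly by the OLE1 homologues (1000 and 467 of 1530 in replicate 3), whereas Migut.M01289 (L1L) was lower at 8 DAP, at 6.66 to 10.4 against 18.5 to 26.1 at 6 DAP. A second homologue of L1L, Migut.E01594, was not among the 6 markers, and its mean was 2.7 at 6 DAP and 0.313 at 8 DAP. Replicate 2, with the lowest sum, had the highest AGL45 level of its age (1.33), and replicates 3 and 4, with the highest sums, had no AGL45 count. In replicates 3 and 4, 4 of the 6 markers (both OLE1 homologues, ABI3 and FUS3) were above both other libraries. The ABI3 homologue, Migut.D00511, was at 27.9, 18.8, 33.4 and 43.5, and the LEC1 homologue, Migut.A00972, had counts in replicate 2 alone. AGL29 was lower and Migut.N01481 higher in replicates 3 and 4 than in replicates 1 and 2. AGL29 was at 9.52 to 11.7 against 25.5 to 26.3 normalized CPM, and Migut.N01481 at 7.22 to 8.61 against 4.25 to 5.02. The homologue of the endosperm gene ZHOUPI, Migut.N01183, was at 10.9, 12.6, 9.97 and 13.1 in the same libraries and did not separate them. The seed coat marker Migut.C00171 (TT10) did, at 581 and 598 in replicates 3 and 4 against 457 and 532 in replicates 1 and 2, and so did 1 of the 4 green tissue markers, Migut.B00625 (LHCB6), at 1330 and 1310 against 919 and 1260. A further green tissue marker, Migut.C00582 (LHCA5), was lower in replicates 3 and 4, at 26.2 or less against 27.5 or more. The part of these markers in the spread of the 3 genes was not tested.

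At 6 DAP, replicate 3 had the lowest AGL45 level and the highest AGL29 level of its age. There, 2 of the 6 maturation markers were above all other 6 DAP libraries and 2 below them. The OLE1 homologue Migut.A00172 was at 30.9 in replicate 3, against 2.85 to 8.19 in the other libraries, and Migut.D00511 (ABI3) was at 5.9, against 3.04 to 3.28. The second OLE1 homologue, Migut.A01025, was lowest there, at 11.1 against 13.4 to 28.7, and so was Migut.M01289 (L1L), at 18.5 against 20.0 to 26.1. The summed level of the 4 green tissue markers was 690 in replicate 3 and at most 453 in the others, and 3 of the 4 were above all other 6 DAP libraries. At 2 DAP, replicate 3 had the highest AGL29 level (1.56). The maturation markers summed to 33.8 in that library, against 4.87, 17.9 and 7.57 in replicates 1, 2 and 4. The sum was mostly Migut.M01289 (L1L, 20.9) and Migut.A01025 (OLE1, 9.1), and 3 of the 6 markers were above all other 2 DAP libraries. Migut.A00172 (OLE1) was at 0.866 in replicate 3 and 1.05 in replicate 2. Migut.A00972 (LEC1) was at 0.52 in replicate 3 and 0.812 in replicate 4, and Migut.D00511 (ABI3) had no count in replicate 3. The seed coat marker Migut.C00171 (TT10, a laccase of the seed coat) was at 134 there, against 15.2 to 45.4, and Migut.N01183 (ZHOUPI) at 3.47, against 0.259 to 1.17. In ovule replicate 5, where Migut.N01481 was highest (10.2, with a 95% counting interval from 8.21 to 12.5), the green tissue markers summed to 683, against 227 to 671 in the other ovule libraries, and the total count was 9599972. Migut.H00214 (RBCS1A, 33.1) and Migut.M00114 (PSBP-1, 62.4) were highest in that library. Migut.B00625 (LHCB6), most of the sum, was at 583 there and 595 in ovule replicate 4, and Migut.C00582 (LHCA5) at 4.1 and 6.56. Ovule replicate 4 had Migut.N01481 at 5.93. The part of these values in the levels of the 3 genes was not tested.

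**Figure D3:**
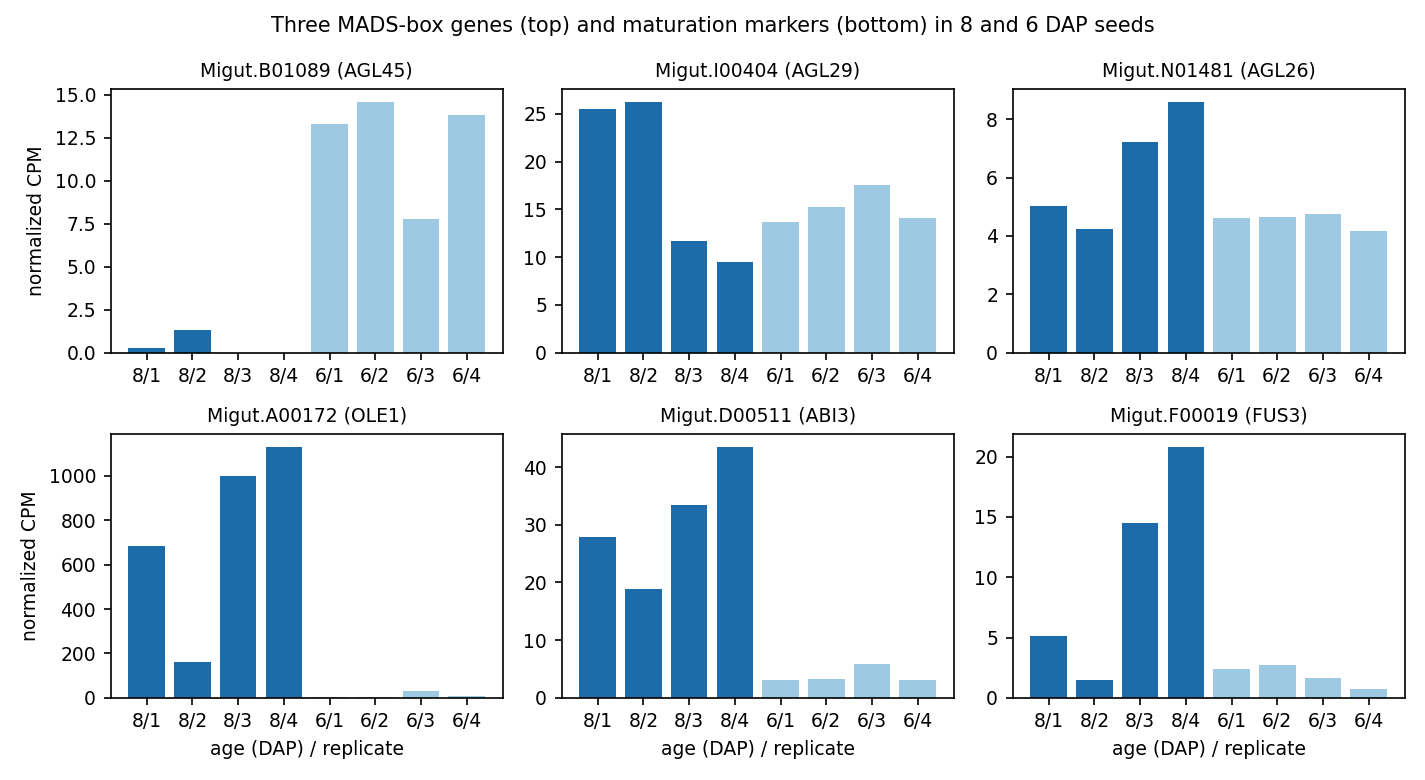
Normalized CPM (vertical axes) of the 3 MADS-box genes (upper panels) and of 3 maturation markers (lower panels) in each 8 DAP library (dark bars) and 6 DAP library (light bars), labelled by age and replicate. The 8 DAP replicates 3 and 4 have no AGL45, the lower AGL29 levels (11.7 and 9.52), the higher Migut.N01481 levels (7.22 and 8.61) and the highest OLE1, ABI3 and FUS3 levels of the 8 libraries, while the markers L1L and LEC1, not drawn, did not separate them in this way.

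Genes with a like pattern were ranked by Pearson's r of log2 CPM with each of the 3 genes over the 20 libraries. The points share ages, libraries and depth, and r is given as a description. For AGL45 the highest r was 0.974 and that at rank 10 was 0.95, and 72 genes had an r over 0.9. Highest was Migut.L00801, which encodes a protein of unknown function (DUF247), with age means of 0, 3.26, 5.2, 25.9 and 0.71 normalized CPM from 0 to 8 DAP. Next came Migut.A01153 and Migut.A01151, both of the alpha/beta-hydrolase superfamily (r = 0.967 and 0.959), then Migut.H00598, a phospholipase C-like phosphodiesterase (0.957). Migut.D01175, whose homologue GUT1 belongs to the exostosin family (0.957), was also present in ovules, at 10.5 normalized CPM. The others were Migut.F00134 (a nodulin MtN21-like transporter), Migut.D00175 (an aspartyl protease), Migut.E01594 (L1L, a subunit of nuclear factor Y), Migut.H00244 (not annotated) and Migut.C01381 (XTH2, an enzyme that cuts and joins cell wall xyloglucan), with r between 0.95 and 0.956. Migut.C01381 had the widest span, with 265 normalized CPM at 6 DAP, against 9.63 at 4 DAP.

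For AGL29 the highest r was 0.989, that at rank 10 was 0.961, and 169 genes had an r over 0.9. The leading gene was Migut.N01841, a homologue of ARR1, which is a response regulator of cytokinin signaling. It was followed by Migut.F01730 (0.987, of the self-incompatibility protein S1 family), Migut.J01723 (0.985, a UDP-glycosyltransferase), Migut.I00601 (0.972, not annotated) and Migut.N00733 (0.969, of the PAP/OAS1 substrate-binding superfamily). Migut.J01121 (0.964) was a further member of the S1 family. Migut.E00510, Migut.E00828, Migut.E01206 and Migut.F00986, with r from 0.961 to 0.966, carry no annotation in the tables used. Among the markers, Migut.C00171 (TT10) had an r of 0.94 and rank 34, and Migut.N01183 (ZHOUPI) an r of 0.938 and rank 38. AGL29 and AGL45 had an r of 0.524 with each other.

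No gene followed Migut.N01481 as closely. Its highest r was 0.867 with 0.846 at rank 10, and 28 genes had an r over 0.8, against 963 for AGL29 and 487 for AGL45. The closest was Migut.N01116, of the histone superfamily. Annotated genes further down were Migut.M00006 (0.859, an ankyrin repeat protein), Migut.K00900 (0.852, HMGA, a chromatin protein), Migut.C01115 (0.849, homologue AT5G64680) and Migut.N00497 (0.847, DUT1, which breaks down dUTP). Migut.F00734, Migut.B01469, Migut.M01557, Migut.J00956 and Migut.D00541 were not annotated. Migut.N01481 had an r of -0.632 with AGL45 and of -0.113 with AGL29. In the libraries numbered 1 to 14, which leave out ovule replicates 3 to 5 and 2 DAP replicates 2 to 4, 5 of the 10 genes closest to AGL45 were again among the closest 10, and 1 each of those closest to AGL29 and to Migut.N01481.

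**Figure D4:**
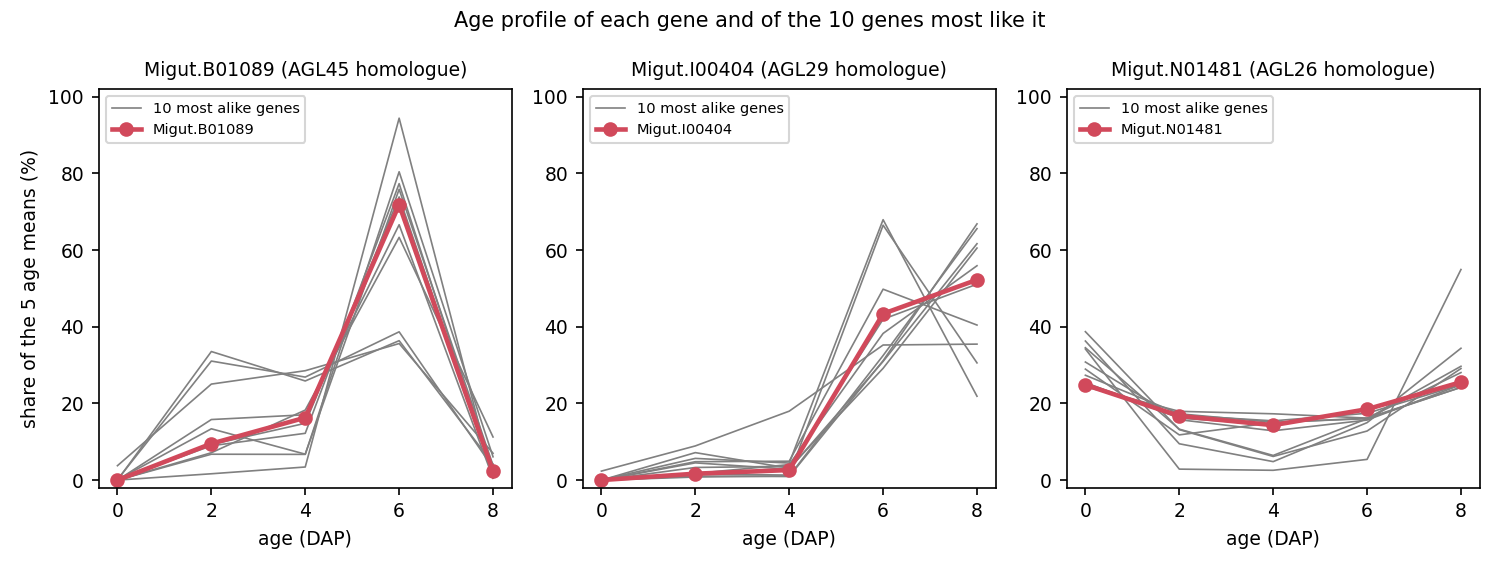
Share of the sum of the 5 age means in percent (vertical axis) at each age in DAP (horizontal axis) for each of the 3 genes (red) and the 10 genes with the highest Pearson's r to it (grey). AGL45 had 71.8% of its sum at 6 DAP, AGL29 had 52.2% and 43.4% at 8 and 6 DAP, and Migut.N01481 had between 14.3% and 25.6% at each age.

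A second gene, Migut.L01896, also has AGL45 as its nearest homologue. Because reads that mapped to more than 1 place were left out of the counts, stretches alike in both genes could be missing from either. Its counts were 0, 1, 0, 0 and 0 in ovule replicates 1 to 5 and 22, 0, 26 and 39 in 2 DAP replicates 1 to 4. They were 19, 11 and 20 at 4 DAP, 26, 55, 11 and 27 at 6 DAP, and 0, 2, 1 and 0 at 8 DAP. Both genes had at most 1 count in ovules and were lower at 8 DAP than at 6 DAP, though Migut.B01089 kept 15 counts in 8 DAP replicate 2. Migut.B01089 had 6.23, 3.71, 8.0 and 5.85 counts per count of Migut.L01896 in 6 DAP replicates 1 to 4, against 2.68, 3.73 and 2.5 in 4 DAP replicates 1 to 3. At 2 DAP the ratio was 1.68, 0.962 and 0.333 in replicates 1, 3 and 4, and replicate 2 had 13 counts of Migut.B01089 and none of Migut.L01896. Migut.L01896 was not among the 3 genes and could be tested, though the paper had named it as differentially expressed in 6 DAP seeds. It was higher in 2 DAP seeds than in ovules, with a pooled ratio of 112 and a counting interval from 19.6 to 4490 (Benjamini-Hochberg adjusted p = 0.000251 from the quasi-likelihood fit of edgeR). The paper reports a bias of Migut.L01896 to the Mimulus guttatus allele, allele-specific and not imprinted. Ovules hold SEC39 alleles alone, so that fertilization and the arrival of the CSS4 allele cannot be told apart in this rise. At 8 DAP Migut.L01896 fell to 0.0708 ± 0.0868 normalized CPM, against 2.34 ± 1.22 at 6 DAP (SD, n = 4 each; adjusted p = 0.00213 in edgeR).

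The other MADS-box genes were a list of 28, with 14 type I genes, 3 homologues of AGL104 (a gene of the MIKC* class that acts in Arabidopsis pollen) and 11 MIKC genes. The study named many of these genes on the same samples, some of them as differentially expressed. The share of the list called, here and at each transition below, was thus partly built in. Neither this share nor a direction is independent evidence. Of the 28, 22 passed the filter and were tested with edgeR's quasi-likelihood F test at a Benjamini-Hochberg false discovery rate of 0.01 over all 20242 genes. In the joint test of the 4 transitions 19 of the 22 passed (86.4%), and 50.2% of all genes did.

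Between 2 DAP seeds and ovules, 10 of the 22 other MADS-box genes were called, each of them higher in seeds (45.5% of the list, against 11.8% of all genes called higher). They were 7 type I genes and all 3 AGL104 homologues. The median log2 fold change of the list was 1.01, and that of all genes -0.02. Migut.B01455 (AGL80) was at 29.5 ± 19.8 normalized CPM at 2 DAP (SD, n = 4), against 0.0645 ± 0.106 in ovules (n = 5; adjusted p = 1.81e-07 in edgeR). The AGL62 homologues Migut.D01476, Migut.B00708, Migut.A00408 and Migut.B00479 averaged 9.88, 7.57, 3.32 and 1.93 in 2 DAP seeds, against 0.313, 0.375, 0.0928 and 0.0244 in ovules. Migut.K00930 (AGL61) averaged 5.35 in seeds and 0.136 in ovules. The AGL104 homologues Migut.H01211 and Migut.K01032 had no count in ovules and were at least 29.3-fold and 5.91-fold higher in 2 DAP seeds, against 3 counts over the ovule libraries. Migut.L00101 had 30 counts at 2 DAP and 2 in ovules. AGL45 itself, among the genes described above, had 1.63 normalized CPM at 2 DAP and no count in ovules. Within the libraries numbered 1 to 14, which hold 1 library of 2 DAP and 2 of ovules, 4 of the list were called. The 2 DAP arm is then a single library, assumed to vary like the other ages.

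Between 4 and 2 DAP, 1 of the 22 was called and higher, Migut.C00785 (a homologue of AP3, a floral organ identity gene), at 26.7 ± 5.44 normalized CPM in 4 DAP seeds (SD, n = 3) and 8.57 ± 2.23 in 2 DAP seeds (n = 4; adjusted p = 0.00741 in edgeR). Of all genes, 0.0198% were called higher there. The median log2 fold change of the list was -0.70, and that of all genes -0.03, on the other side of 0 from the call. The call was lost without 2 DAP replicate 2 or 4 and without any 1 of the 4 DAP replicates 1, 2 and 3, which left a count of 0. It was also lost with a covariate for the library series, a split made here that set library numbers 15 to 20 apart. A replicate block by either numbering lost it too, and each of these fits gave 0 calls. Calls over all genes, 40 in the main test, fell as well. They were 9 and 0 without 2 DAP replicates 2 and 4, and 0, 0 and 1 without 4 DAP replicates 1, 2 and 3. With the covariate they were 1, with the block by label numbers 27 and with the block by table header numbers 0. In the test with all libraries 7 of the 22 had an unadjusted p under 0.05, and DESeq2 called 1.

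Between 6 and 4 DAP, where AGL45 and AGL29 were higher in every 6 DAP library, 5 of the 22 were called higher and 2 lower at 6 DAP, against 5.22% and 2.12% of all genes. The 5 were the 3 AGL104 homologues, Migut.C01325 (AGL80) and Migut.B00557 (SVP, a regulator of flowering time). Migut.C01325 was at 15.1 ± 2.19 normalized CPM in 6 DAP seeds (SD, n = 4), against 1.16 ± 0.536 in 4 DAP seeds (n = 3; adjusted p = 0.00274 in edgeR). Migut.L00101, Migut.H01211 and Migut.K01032 averaged 9.82, 9.56 and 4.94 at 6 DAP, against 0.689, 0.855 and 0.0826 at 4 DAP. Migut.B00557 averaged 2.75 at 6 DAP and 0.157 at 4 DAP. Migut.B00708 (AGL62) fell to 0.143 at 6 DAP, against 2.09 at 4 DAP, and Migut.N01413 (AGL6) fell by 1.67 on the log2 scale. The median log2 fold change of the list was 0.43 (0.72 without a gene that had 3 counts or fewer at both ages), and that of all genes -0.001. The count of 7 fell to 2 without 4 DAP replicate 1 or 3, to 3 without 4 DAP replicate 2, and to 4 without 6 DAP replicate 2, 3 or 4. Calls over all genes fell in these fits too, from 1487 to 743, 718 and 725 without 4 DAP replicates 1, 2 and 3. Without 6 DAP replicates 2, 3 and 4 they were 1130, 992 and 1144.

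Between 8 and 6 DAP, 5 of the 22 were called and all of these were lower at 8 DAP (22.7% of the list, against 6.77% of all genes called lower). Migut.L00101 had no count at 8 DAP and was at least 136-fold lower than at 6 DAP, against 3 counts over the 8 DAP libraries. Migut.B01455 (AGL80) was at 0.0886 ± 0.177 at 8 DAP, against 19.7 ± 10.3 at 6 DAP (SD, n = 4 each; adjusted p = 9.83e-06 in edgeR). Migut.L01896 is described above. Migut.B01667 (AGL6) was at 73.1 ± 17.3 at 8 DAP, against 325 ± 49.0 at 6 DAP, and Migut.C00785 (AP3) at 8.89 ± 2.48, against 25.8 ± 7.65. The median log2 fold change of the list was -1.42 (-1.19 with genes without counts at the limit of 3 counts and genes with 3 counts or fewer at both ages left out), and that of all genes -0.07.

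Some other MADS-box genes had a pattern close to that of AGL45 or of AGL29. Migut.B01455 had an r of 0.884 with AGL45, rank 100 among all genes, and Migut.L01896 and Migut.L00101 had 0.847 each. Migut.C01325 had an r of 0.848 with AGL29 and Migut.H01211 of 0.832. Migut.H01211 was at 14.2, 16.5, 5.62 and 3.24 normalized CPM in 8 DAP replicates 1 to 4, and Migut.C01325 at 18.4, 15.7, 10.6 and 10.0. In both, as for AGL29, replicates 1 and 2 were above replicates 3 and 4.

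**Figure D5:**
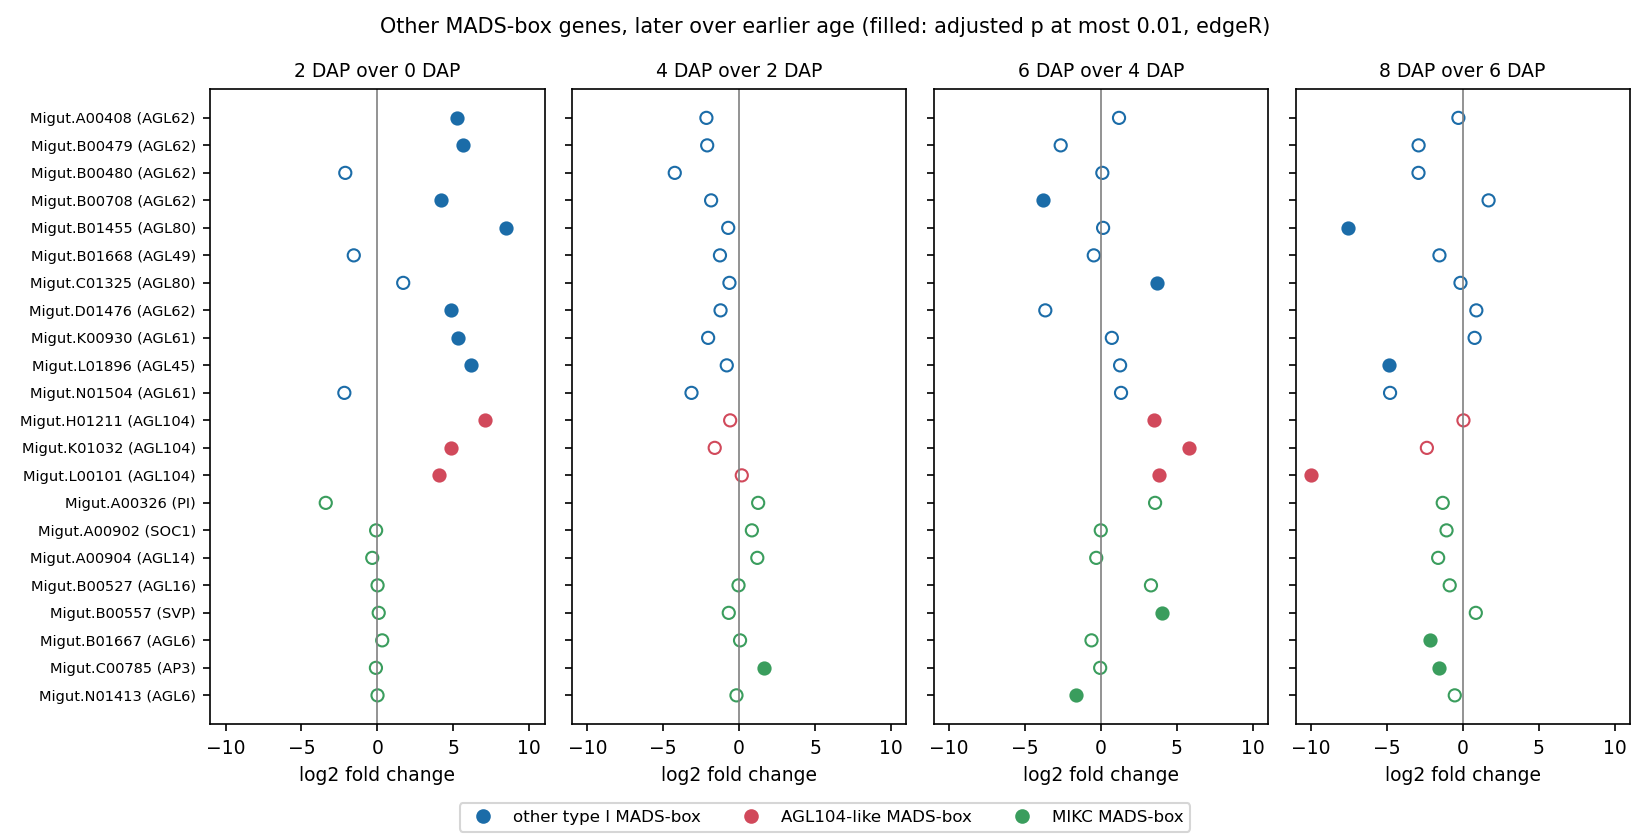
Log2 fold change of the later over the earlier age (horizontal axes) of the 22 other MADS-box genes tested (vertical axis) at each transition, colored by class, with filled points where the adjusted p of edgeR was at most 0.01. The 10 filled points at 2 over 0 DAP lie above 0 and the 5 at 8 over 6 DAP below 0, and fitted values of genes without counts at 1 of the ages depend on the prior count.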

How the data were processed

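Total RNA of ovules and whole seeds was sequenced on a NextSeq 500 in 20 strand-specific libraries. The authors used STAR to map the reads to a pseudo-reference of each parent line, merged both alignments, and ran featureCounts with the Phytozome v2.0 annotation on read pairs that mapped properly and to 1 place. Versions of STAR and featureCounts are not given in the sources used here. The deposited values are raw counts, 1 per gene and library. Ages and replicate numbers came from the labels, and library numbers from the deposited tables' names and the paper.

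The 3 genes and all lists were chosen with earlier results of these data known. CPM and TMM-normalized CPM were computed here. A gene was kept where its CPM exceeded 1 in 3 or more libraries. edgeR 4.0.16 (R 4.3.3, limma 3.58.1) was fitted to all 20 libraries with 1 coefficient per age and robust quasi-likelihood F tests, with Benjamini-Hochberg adjustment over all genes at 0.01. Log2 CPM for likeness used a prior count of 0.5. Counting intervals are exact at 95%. DESeq2 1.42.0, Python 3.11.15, pandas 2.3.3, scipy 1.17.1 and matplotlib 3.10.9 were also used. The edgeR script was tested on simulated data. Between 6 and 4 DAP it called 64.1% of 92 simulated 4-fold changes and 83.3% of 108 8-fold changes, with 0 false calls. A gene that was not called can thus have changed several-fold.

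The genes named were the 3 genes, the 10 genes with the highest Pearson's r to each, every listed MADS-box gene called at a transition and Migut.L01896. Other MADS-box genes and markers appear with values only. Replicates of an age differed by more than sampling noise. The numbers in the table headers differ from those of the paper's sample names for the 2 DAP libraries. Replicates 1 to 4 of that age are numbered 4, 5, 6 and 7 in the headers. Which numbering follows the maternal plants at 2 DAP is thus uncertain, and the paper's own numbering was not tried. Deviations of libraries that share a header number had a median correlation of 0.0385 in 22 pairs, from -0.17 to 0.557, with 8 over 0.1. With the label numbers the median was -0.0262 in 36 pairs. Neither numbering was used as a block in the main test. Alternatives were another scaling, tool, test, filter and threshold, a replicate block, the library series, the ages fitted and leaving out each library. The library series set library numbers 15 to 20 against the rest, a split made here that the paper does not name. No sequence or gene position was used here.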

Additional observations from a re-analysis of the deposited data

Results flagged for a closer look

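In each group of 4 or 5 libraries, the library farthest from the others was compared with the range of its group for the 3 genes, in 11 groups, and chance alone marks about 1 group in 20. That rate does not apply to groups near 0, where a single library with counts is always marked. In the ovules, AGL29 (Migut.I00404) was at 0.0526 normalized CPM in replicate 2 and at 0 in the other ovule libraries, which is a single count. Migut.N01481 was at 10.2 normalized CPM in ovule replicate 5, from 92 counts, and at 4.21 to 5.93 in the other ovule libraries.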

How the results depend on the processing

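Counts of other MADS-box genes called (10, 1, 7 and 5 at the 4 transitions in order of age) were most often moved between 4 and 2 DAP. There edgeR's likelihood ratio test called 3 and a false discovery rate of 0.05 called 2, while a covariate for the library series, libraries 1 to 14 alone and a fit of both ages alone called 0, with 7 at an unadjusted p under 0.05 in the test with all libraries and 1 call in DESeq2. With the replicate block the calls were 8, 0, 5 and 5, and with the numbers of the table headers as a block 9, 0, 6 and 5. Libraries 1 to 14 alone gave 8 calls between 8 and 6 DAP, and a fit of both ages alone gave 11 between 6 and 4 DAP. Calls over all genes rose in these fits too, to 7499 against 2892 in the main test and to 4695 against 1487. Between 4 and 2 DAP the likelihood ratio test called 588 genes in all and the rate of 0.05 called 734, against 40 in the main test. In these fits the counts of the list moved with the number of genes called in all. This did not hold in every fit. With the numbers of the table headers as a block, 5168 genes were called between 8 and 6 DAP, and the list stayed at 5. In that fit 1782 genes were called between 6 and 4 DAP, more than in the main test, while the list fell to 6. Leaving out 1 library in turn gave 7 to 11, 0 to 1, 2 to 8 and 5 to 6 calls at the 4 transitions, and 18 to 20 in the joint test. Without TMM, the 4 DAP means were 3.27 CPM for AGL45, 1.08 for AGL29 and 4.12 for Migut.N01481, more than 1 SD from the normalized values. Of the 10 genes most like AGL45, AGL29 and Migut.N01481, 4, 3 and 4 were shared with a ranking by Spearman's rho. With a prior count of 2, 6 were shared for AGL45 and 6 for AGL29, and without TMM 5 for Migut.N01481. In libraries 1 to 14 the numbers were 5, 1 and 1. The causes were not tested. At this depth, a count of 0 in 1 library allowed 0.181 to 0.395 CPM, which limits AGL29 in ovules and 2 DAP seeds and AGL45 at 8 DAP.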
